A study of Homo sapiens with 2 samples.

Results

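The myosin heavy chain genes MYO5A, MYO5B, MYO5C, MYO6, MYO1D, MYO1E, MYO9A, MYO10, MYH9 and MYH10 were followed through immunoprecipitates of 293T cells, a human embryonic kidney line transformed with the SV40 large T antigen. The members were chosen by their gene symbol in the platform annotation, and all 10 were found among 19775 named genes, with 25 of the 41091 probe sets that carry exactly 1 symbol. The list was selected on earlier results of these arrays, namely the log2 difference between the arrays and the agreement between probe sets of a gene, so the values below are a description. Of the 2 arrays, 1 held RNA precipitated from cells transfected with synthetic miR-941 and 1 held RNA from cells transfected with a scrambled oligonucleotide, each oligonucleotide at 30 nmol/l. For the miR-941 sample the beads carried antibody against Ago2, an Argonaute protein that bound microRNAs guide to target mRNAs. The title of the control sample also names Ago2, but its antibody entry names nonimmune IgG beads. If that entry holds, oligonucleotide and antibody cannot be told apart. Each group had 1 array, so no difference has a replicate check and no p-value is given. Neither array held input RNA, so recovery with the beads and mRNA level in the cells cannot be told apart.

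Myosin heavy chains are motor proteins that bind actin filaments and hydrolyse ATP to move along them or to pull on them. Class V myosins carry vesicles and organelles toward the plus end of actin filaments, and the class VI myosin is the one that walks to the minus end and serves endocytosis. Class I myosins tie membranes to actin, the class IX myosin carries a signalling domain in its tail, and the class X myosin travels to the tips of filopodia. Nonmuscle myosin II assembles into filaments that contract the cell cortex and the cleavage furrow.

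The transfected microRNA is shown with its seed, bases 2 to 8, in capitals, because these bases pair with target mRNAs. RefSeq holds 5 identical copies on chromosome 20 in GRCh38.p14, all on the plus strand, the first at chr20:63919495-63919517.
hsa-miR-941: cACCCGGCugugugcacaugugc
The seed is complementary to GCCGGGU. No myosin transcript sequence was used here, so sites for this seed in the myosin mRNAs were not counted. The microRNA genes lie within DNAJC5, whose 3 detected probe sets differed by -0.26, 0.09 and 0.26 on the log2 scale. For the AGO2 mRNA itself the values were 8.02 (control) and 7.44 (miR-941), lower by a log2 difference of -0.58.

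Values are the authors' RMA values, taken as log2, and every difference is the miR-941 array minus the control array. Probe sets with a mean over both arrays above 0.92, about the median of all probe sets, were called detected, and the brightest probe set stood for its gene. All 10 myosin genes were detected, through 20 of their 25 probe sets. The level of one probe set says nothing of the level of another, so the genes are not ranked by level. Of 10 markers listed for 293T cells, 9 were detected, of which 6 were higher with miR-941 and 3 lower. Of the 6 higher ones, PAX2 lay near the detection level, at 0.86 (control) and 1.23 (miR-941). Over all detected genes 46.3% were higher and 42.4% lower. The 9 markers had a median log2 difference of 0.24, against 0.00 over all detected genes. The markers ran from the neuronal filament gene INA (-0.59) to the RNA-binding protein gene IGF2BP1 (0.52). KRT8, which encodes a keratin, was not detected. Among 15 markers of other cell types, 7 passed 0.92, and no value of the list exceeded 2.72 on the control array or 2.48 on the miR-941 array. Summed over the 15 markers, the log2 values came to 15.4 and 14.7.

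All 10 myosin genes were lower on the miR-941 array, with a median log2 difference of -0.62, or 1.54-fold. Among the 13144 detected genes 42.4% were lower, and their median difference was 0.00. Of the 10 genes, 7 were lower by 1.5-fold or more, against a background of 2.87%. MYO5A and MYO6 lay just past that threshold and were short of it once each array was centred on its median over detected probe sets, which left 5. A difference of 2-fold or more was reached by 2 of them, MYO1E and MYO5B, against a background of 0.289%. No member was higher, where 46.3% of detected genes were. The members were listed with this contrast in view, so nothing further is read from these counts.

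**Figure D1:**
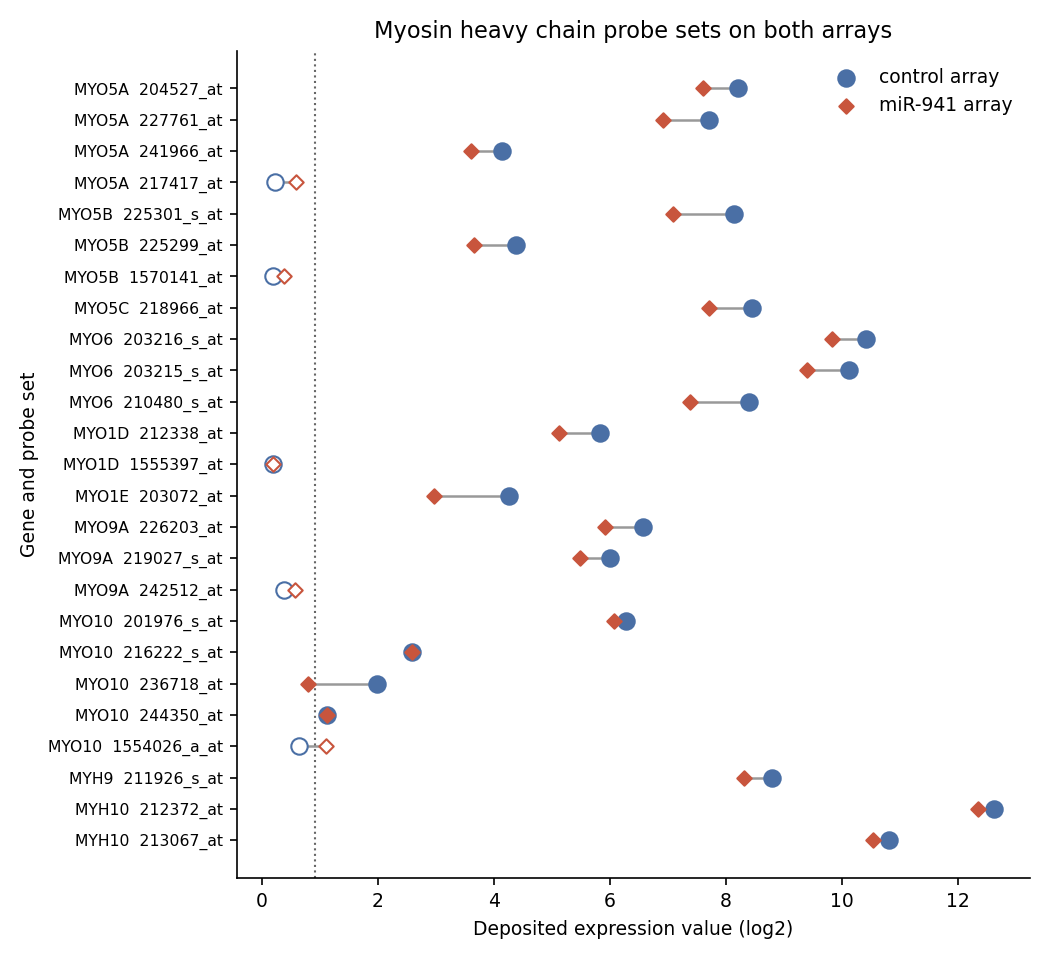
Deposited log2 value (x axis) of each of the 25 myosin probe sets (y axis) on the control array (circles) and the miR-941 array (diamonds). Hollow symbols mark the 5 probe sets whose mean is not above 0.92 (dotted line); 18 of the 20 filled pairs have the diamond on the left, and the other 2, both of MYO10, coincide.

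The class V genes gave lower values on the miR-941 array in all 6 of their detected probe sets, with log2 differences from -1.06 to -0.53. MYO5A, which carries melanosomes in pigment cells and endoplasmic reticulum in neurons, read 8.21 (control) and 7.61 (miR-941) with its brightest probe set (204527_at), a difference of -0.59. A further MYO5A probe set (227761_at) read 7.72 and 6.91, a difference of -0.80. The third detected one (241966_at) read 4.13 and 3.60, a difference of -0.53. The 3 probe sets of MYO5A thus differed one way, with an SD of 0.14 between them. MYO5B, which recycles membrane proteins to the apical surface of epithelial cells, read 8.15 and 7.09 (225301_s_at), a difference of -1.06 or 2.09-fold. Its other detected probe set (225299_at) read 4.39 and 3.66, a difference of -0.73. MYO5B was therefore past 2-fold in its brighter probe set and short of it in the dimmer one. MYO5C, the class V myosin of exocrine and other epithelial cells, had a single probe set, which read 8.45 and 7.71, a difference of -0.74.

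MYO6, the minus-end motor, had 3 detected probe sets, all lower on the miR-941 array. The brightest (203216_s_at) read 10.41 (control) and 9.83 (miR-941), a log2 difference of -0.59, just past the threshold of 1.5-fold. The next (203215_s_at) read 10.13 and 9.40, a difference of -0.73. The dimmest (210480_s_at) read 8.41 and 7.38, a difference of -1.03. Their median was -0.73 with an SD of 0.23 between probe sets. All 3 carry the suffix _s_at, which marks probes shared by several transcripts.

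The class I genes had 1 detected probe set each, so neither has a second detected reading within the arrays. MYO1D, a membrane-bound motor linked to left-right asymmetry in flies and fish, read 5.82 (control) and 5.13 (miR-941), a log2 difference of -0.69. MYO1E, a motor of clathrin-coated pits and of the kidney's podocytes, read 4.25 and 2.97. That difference of -1.28 or 2.43-fold was the largest of the 10 and ranked 10th from the lowest among 13144 detected genes.

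MYO9A, a class IX motor, read 6.57 (control) and 5.92 (miR-941) (226203_at), a log2 difference of -0.65. Its second detected probe set read 6.00 and 5.48, a difference of -0.52, so both were lower by like amounts. MYO10, the motor of filopodial tips, was the member whose probe sets differed most from each other. Its brightest (201976_s_at) read 6.28 and 6.07, a difference of -0.21. Of the other 3 detected ones, 216222_s_at read 2.58 on both arrays and 244350_at read 1.13 on both. The remaining one (236718_at) read 1.99 (control) and 0.79 (miR-941), a difference of -1.20 near the detection level. The SD over the 4 MYO10 probe sets was 0.57, above the SD of 0.31 pooled within 6102 genes that have 2 or more detected probe sets.

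The nonmuscle myosin II genes among the members, MYH9 and MYH10, were lower by less than 1.5-fold. MYH9, which encodes the heavy chain of nonmuscle myosin IIA, read 8.80 (control) and 8.31 (miR-941) with its single probe set, a difference of -0.49. MYH10, which encodes that of nonmuscle myosin IIB, read 12.62 and 12.35 with one probe set (212372_at) and 10.81 and 10.54 with the other (213067_at). Both MYH10 probe sets differed by -0.27. MYH9, MYH10 and MYO10 were the 3 members short of 1.5-fold.

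Counted by probe set, 18 of the 20 detected readings were lower and 2 were equal, where 43.4% of all 23302 detected probe sets were lower. Of the 6 members with several detected probe sets, all except MYO10 had every one lower. Over all 6102 such genes, 17.1% had every detected probe set lower. MYO5A and MYO6 had 3 detected probe sets each, all lower, as did 10.7% of the 2577 genes with 3 or more. The 5 probe sets below the threshold did not share this direction. On the miR-941 array 1 each of MYO5A, MYO5B, MYO9A and MYO10 was higher, and 1 of MYO1D was equal. Except for that of MYO10, they read at most 0.59 on either array. The share of all probe sets below the threshold that were higher was not counted, so nothing is read from these 5. Nearest to the threshold of 0.92, MYO10's 244350_at lay inside it with a mean of 1.13 and its 1554026_a_at outside with 0.87, reading 0.63 and 1.10. Identical values on both arrays were held by 21.6% of the 54675 probe sets of any level, and by 2902 of the 23302 detected ones. Probe sets of one gene share 1 hybridisation per array, and their spread holds no variation between cultures.

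Most of the myosin genes were read by bright probe sets. The detected genes were divided into 4 equal groups by the mean level of their brightest probe set. Of the 10 myosins, 8 fell in the brightest group, MYO1D in the next and MYO1E in the one below that. The groups set differences beside those of similarly bright probe sets and do not rank the mRNA levels of the genes. In the brightest group, which starts at a mean of 6.08, 44.9% of 3286 genes were lower and 0.974% were lower by 1.5-fold or more. In the values as deposited, its myosins included 5 past 1.5-fold, namely MYO5A, MYO5B, MYO5C, MYO6 and MYO9A. In the group of MYO1E, 42.8% of genes were lower and 0.639% were lower by 2-fold or more.

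**Figure D2:**
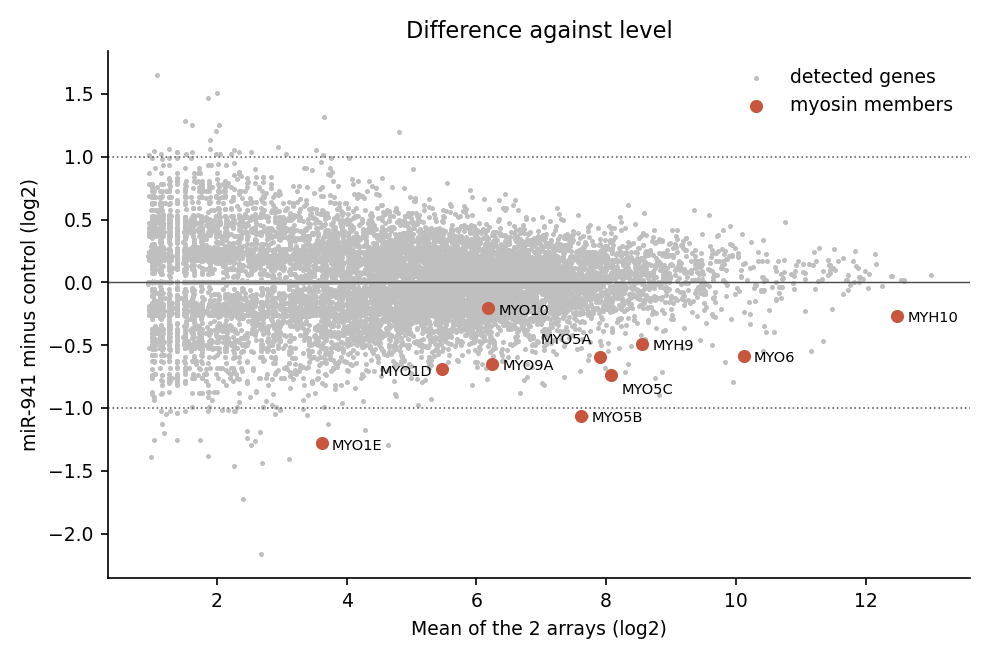
Log2 difference between the miR-941 and control arrays (y axis) against the mean of both arrays (x axis, log2) for the 13144 detected genes (grey) and the 10 myosin genes (red); dotted lines mark 2-fold. All 10 myosin genes lie below 0, and MYO1E (-1.28) and MYO5B (-1.06) lie below the lower line.

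Control probe sets along the actin mRNA also differed between the arrays. The 5' control of ACTB read 7.15 (control) and 6.49 (miR-941), a log2 difference of -0.66, the middle control differed by -0.37 and the 3' control by -0.04. For GAPDH the same positions differed by -0.19, -0.07 and 0.05. For both mRNAs the difference was thus more negative at the 5' end than at the 3' end, and the 5' value of ACTB lay within the range of the 10 myosin genes. Where along the myosin mRNAs the probes lie was not used here, and the part of this gradient in the myosin differences was not tested.

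Other genes of myosin biology were taken from lists written with the earlier results known. Of 17 other unconventional and nonmuscle heavy chains 15 had a probe set with 1 symbol and 6 were detected, with 3 lower, 1 equal and 2 higher and a median log2 difference of -0.10. MYH14, which encodes the heavy chain of nonmuscle myosin IIC, was the lowest. Its brightest probe set read 5.47 (control) and 4.70 (miR-941), a difference of -0.77, and 5 of its 6 detected probe sets were lower and 1 equal (median -0.46). MYO9B, the other class IX motor, differed by -0.73 in its brightest probe set, but its other 2 were equal and higher. MYO19, a motor on mitochondria, differed by -0.19 in its brightest probe set and was higher in the other 2. MYO1C, a membrane motor of glucose transporter delivery, read 5.53 on both arrays. At the higher end, MYO3A (0.21) and MYO1F (0.26) were dim, with at most 1.49 on either array. Of 11 muscle heavy chains only the smooth muscle gene MYH11 was detected, and it read 2.26 on both arrays.

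The light chains that bind the necks of these motors did not share the direction. Of 7 detected light chain genes 1 was lower, 2 were equal and 4 were higher, and the median log2 difference was 0.10. None reached 1.5-fold in either direction, where 2.87% of all detected genes were that much lower and 2.92% that much higher. CALML4, a light chain of the brush border, read 5.81 (control) and 6.19 (miR-941) (0.38). Of its 3 detected probe sets 2 were higher and 1 was lower. MYL6, the essential light chain of nonmuscle myosin II, read 9.54 and 9.92 (0.38), and both of its detected probe sets were higher. The regulatory light chain gene MYL12A read 4.78 on both arrays, and its paralog MYL12B read 7.20 and 7.34. The lowest was MYL5 (-0.26), followed by MYL12A and MYL9, both equal on the arrays.

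Among 16 detected genes that regulate contractility, 10 were lower and 6 higher, with a median log2 difference of -0.11. ANLN, the anillin that anchors the contractile ring, read 9.22 (control) and 8.50 (miR-941) (-0.71), with both probe sets lower. ROCK1, a kinase that activates myosin II, differed by -0.67 in its brightest probe set, yet by a median of only -0.12 over 4. At the higher end were RHOC (0.62), a small GTPase gene whose 2 probe sets differed in opposite directions, and PPP1R12B (0.59), a myosin phosphatase subunit with 1 probe set.

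The partners of class V and class VI motors had median log2 differences near 0. Of 16 detected class V partners 7 were lower, 7 higher and 2 equal (median 0.00), where 42.4% of all detected genes were lower and 46.3% higher. None passed 1.5-fold, a difference reached by 2.87% of detected genes in the lower and 2.92% in the higher direction. RAB11FIP2, an adaptor that joins RAB11 to MYO5B, had -0.39 with both probe sets lower, and DYNLL1, a light chain shared with dynein, had -0.24. Its paralog DYNLL2 had 0.38 and the actin nucleator SPIRE2 0.44, with every detected probe set of both higher. Of 15 detected class VI partners, which act in endocytosis and autophagy, 6 were lower, 8 higher and 1 equal (median 0.03), and none passed 1.5-fold, against the same background. The clathrin adaptor subunit AP2M1 had -0.42 with 1 probe set, and the autophagy receptor OPTN had -0.25, with a median of -0.13 over 2. The clathrin assembly gene PICALM had 0.53 and the adaptor subunit AP2A2 also 0.53. PICALM was dim in its brightest probe set (1.97 control, 2.49 miR-941), and its 3 probe sets, all higher, had an SD of 0.71. AP2A2 was higher in 3 of its 4 detected probe sets and lower in 1 (median 0.29).

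**Figure D3:**
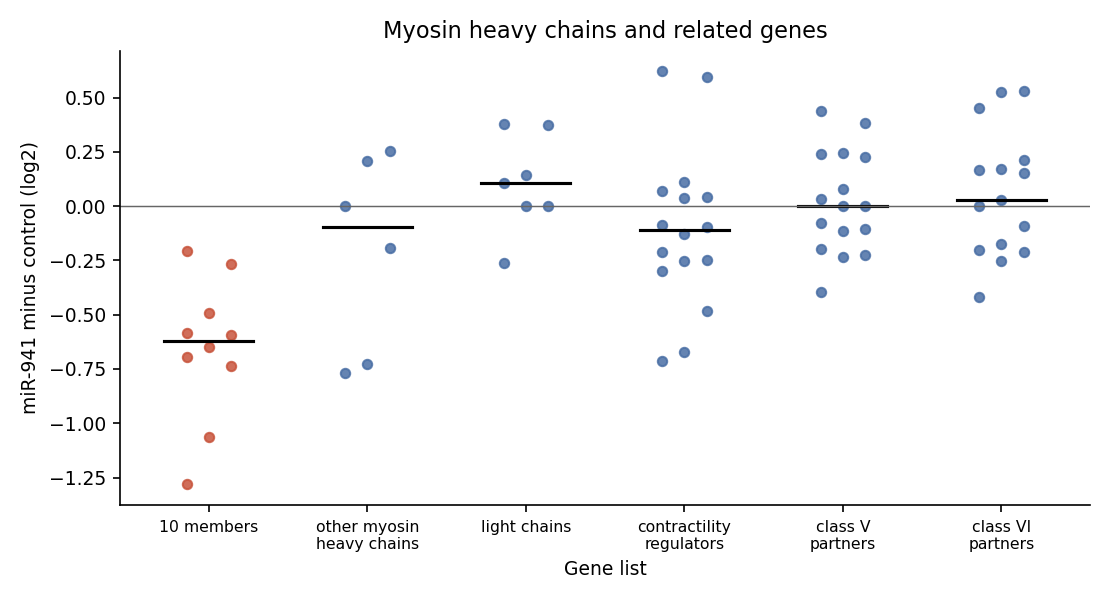
Log2 difference between the miR-941 and control arrays (y axis) for the detected genes of each list (x axis), 1 point per gene by its brightest probe set, with the list median as a bar. The 10 members lie between -1.28 and -0.21 with a median of -0.62, and the other 5 medians lie between -0.11 and 0.10.

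The 10 genes lie on 6 chromosomes, with MYO5A, MYO5C, MYO1E and MYO9A all on chromosome 15. RefSeq promoters (GRCh38.p14) were matched for all 10, and the 250 bases before the start were searched on both strands, counting overlaps. The GC box, GGGCGG or CCGCCC, was found in 9 of the 10, beside 66.2% of the promoters of detected genes and 42.3% of all 27305 promoters. The CCAAT box, CCAAT or ATTGG, was found in 4, beside 34.8% of those of detected genes. TATAAA or TTTATA was found in none of the 10, beside 5.35%. The promoters of MYO6, lower in all 3 of its probe sets, and of MYO1E, the exception with no GC box in this window, are shown with the GC box in capitals. MYO6 lies on the plus strand at chr6:75748989-75749238 and MYO1E on the minus strand at chr15:59372872-59373121.
MYO6: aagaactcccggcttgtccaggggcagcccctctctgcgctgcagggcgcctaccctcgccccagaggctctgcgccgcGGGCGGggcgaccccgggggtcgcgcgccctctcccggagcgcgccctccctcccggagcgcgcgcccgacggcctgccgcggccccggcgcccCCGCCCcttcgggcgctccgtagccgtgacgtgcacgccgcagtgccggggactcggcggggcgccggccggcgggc
MYO1E: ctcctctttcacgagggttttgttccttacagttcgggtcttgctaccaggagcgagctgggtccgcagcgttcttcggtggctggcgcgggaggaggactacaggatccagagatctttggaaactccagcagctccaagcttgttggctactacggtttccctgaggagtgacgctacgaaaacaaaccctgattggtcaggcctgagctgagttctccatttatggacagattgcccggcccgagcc
A match is a description of these letters and not evidence that a factor binds there.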

How the data were processed

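RNA from Ago2 or control immunoprecipitates of 293T cells was hybridised to Affymetrix U133 Plus arrays. Before deposit the authors summarised each probe set to an RMA expression value, here read as log2, according to the design text (deposited values); the submitters' processing notes also name affy and MAS5. The log2 scale was inferred, since values reach 13.7 and the natural logarithm of a 16-bit reading is at most 11.1. Scale and centring are not given in the sources used here. The array medians were 0.92 (control) and 0.98 (miR-941). The number of arrays, 1 per group, limits the precision.

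Symbols came from the platform annotation, updated by Entrez identifier through RefSeq genes (GRCh38.p14), which held 41037 of 41091 probe sets with 1 symbol. Another 1801 probe sets had several symbols and 11721 had none. The members and lists were chosen with earlier results of these data known. The named genes are the members and the 2 highest and 2 lowest detected genes of each related list. The ACTB and GAPDH controls, DNAJC5 and AGO2 are named too. MYO19, MYO1C and MYL12B were added after their values were seen, as were the marker genes INA, IGF2BP1, KRT8 and PAX2. A planned choice of genes near MYO6 in level was dropped, since it sets levels of different probe sets against each other. The counting code was tested on shuffled differences of these arrays with known shifts added. Python 3.11.15 and pandas 2.3.3 were used. Alternatives changed the probe set that stands for a gene, the probe set types, the level filter, the centring of each array on its median over detected probe sets, a lowess trend (span 0.4) and a floor.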

Additional observations from a re-analysis of the deposited data

How the results depend on the processing

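In 3 of the 8 alternatives (no level filter, the 75th percentile of level, low values set to the detection level) the myosin gene values are the same by construction. In the other 5 they gave 48 values, all below 0 and from -1.28 to -0.10, and the list median, -0.62 in the values as deposited, ran from -0.71 to -0.61. MYO6 and MYH9 have only _s_at probe sets and have no value without _x_at and _s_at ones; there MYO5B had -0.73 and MYO10 -1.20, and the lower myosin probe sets numbered 11 of 12. Probe sets higher on the miR-941 array were 0 of 20, but 4 of 25 with no level filter and 2 of 20 with each array centred on its median over detected probe sets (3.39 control, 3.38 miR-941), which adds 0.01 to every difference, the equal MYO10 readings included. That centring also took MYO5A (-0.58) and MYO6 (-0.57) short of 1.5-fold, leaving 5 of 7. Genes past 2-fold over all detected genes were 38 lower and 29 higher; they were 18 lower with the median and 18 with the mean over probe sets, 7 lower and 4 higher above the 75th percentile of level, and 113 and 83 counted by probe set. At 1.5-fold they were 377 and 384. The median of the other heavy chains turned from -0.10 to 0.10 with the median and 0.11 with the mean over probe sets. With the median over probe sets MYO19 moved from -0.19 to 0.41, MYO9B from -0.73 to 0.00 and MYH14 from -0.77 to -0.46. MYO1C, MYO3A and MYO1F kept their values. Why the probe sets of a gene differ was not tested. No paired analysis was possible because there is 1 array on each side, and for the same reason leaving out an array was not run.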
